A study of Mus musculus with 22 samples.

Results

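The cadherin switch was followed through 9 genes in gastruloids, which are small balls grown from mouse embryonic stem cells in which tissues like those of a gastrulating embryo arise. The genes were the adhesion molecules Cdh1, Cdh2, Cdh11 and Epcam, the intermediate filament gene Vim and the transcription factors Snai1, Snai2, Zeb1 and Zeb2. They were taken by symbol, with no threshold on their measured values, and they are 9 of the 32285 genes counted. All gastruloids came from wild-type E14Tg2A embryonic stem cells kept in ESLIF medium. In every group 300 cells were seeded per well and left to aggregate for 48 h, after which the medium N2B27 held 3 µM CHIR99021, a GSK3 inhibitor that activates Wnt signalling. Days are counted from aggregation. MULTI-seq, a method that marks the cells of each gastruloid with their own lipid-anchored DNA barcode before pooling, gave cells of single gastruloids in 3 experiments: day 5 in MULTI-seq 1 (24 gastruloids), days 4 (11) and 4.5 (12) in MULTI-seq 2, and days 3 (24), 3.5, 4, 4.5 and 5 (16 each) in MULTI-seq 3. Per the labels, gastruloids were picked as representative ones, and all of them came from the same cell line, with no embryo tissue.

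In textbook terms, an epithelial-mesenchymal transition is the step by which cells of an epithelium lose tight contacts and become migratory, and at gastrulation it turns epiblast cells of the primitive streak into mesoderm. Cdh1 encodes E-cadherin, which holds epithelial cells together, and its replacement by the N-cadherin gene Cdh2 in the forming mesoderm and neural tissue is known as the cadherin switch. Factors of the Snail and Zeb families repress Cdh1 by binding E-box elements in its promoter, whereas definitive endoderm is known to keep or regain epithelial character.

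On the mouse assembly GRCm38 the cadherin genes Cdh1 (chromosome 8, 106603351 to 106670246, plus strand) and Cdh11 (chromosome 8, 102632095 to 102785642, minus strand) share a chromosome, and Cdh2 lies on chromosome 18 (16588877 to 16809246, minus strand). Epcam lies on chromosome 17 (87635979 to 87651129, plus strand) and Vim on chromosome 2 (13573927 to 13582826, plus strand). Snai1 (167538195 to 167542814, plus strand) and Zeb2 (44983632 to 45117395, minus strand) are also on chromosome 2, Snai2 is on chromosome 16 (14705852 to 14709385, plus strand) and Zeb1 on chromosome 18 (5591860 to 5775467, plus strand). The counted features are whole genes read from their 3′ ends, so isoforms were not separated. An antisense gene overlaps Zeb2, and without a stated strand setting of the counting their reads cannot be told apart, which makes the Zeb2 values uncertain.

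Because Snail and Zeb factors recognise the E-box CAGGTG, the 300 bases from 250 before to 50 after the start of each member with a promoter in the RefSeq table (GRCm38.p6) were searched for CAGGTG and its reverse complement CACCTG. Promoters were matched for 4 of the 9 genes: Epcam, Vim, Snai1 and Zeb2. The letters were found upstream of Epcam and Snai1, whose 250 bases before the start are shown here 5′ to 3′ with the matches in capitals.

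Epcam (chr17:87635729-87635978, plus strand): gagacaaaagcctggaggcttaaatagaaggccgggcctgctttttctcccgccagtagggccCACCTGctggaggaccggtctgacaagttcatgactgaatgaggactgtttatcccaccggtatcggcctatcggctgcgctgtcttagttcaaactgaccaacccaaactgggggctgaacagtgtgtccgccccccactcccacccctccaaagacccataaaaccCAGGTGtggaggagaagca

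Snai1 (chr2:167537945-167538194, plus strand): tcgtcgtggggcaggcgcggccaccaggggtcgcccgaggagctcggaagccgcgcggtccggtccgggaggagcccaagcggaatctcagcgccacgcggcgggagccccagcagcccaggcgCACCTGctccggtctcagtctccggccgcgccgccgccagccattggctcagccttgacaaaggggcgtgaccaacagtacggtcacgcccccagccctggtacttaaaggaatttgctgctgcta

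The Epcam window held 2 matches, whose first bases lie at −187 and −19 from the start of the gene, and the Snai1 window held 1, at −126. Vim and the Zeb2 promoters held 0. Over all 32851 promoter windows of 300 bases in the table, 20.2% held at least 1 match and 2.88% held 2 or more, so a match is common and is a description of these letters, not a binding site.

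Sums of UMI counts per gastruloid ranged from 1293000 to 57330000, and levels are given as counts scaled to a total of 1000000 UMIs of the summed cells (CPM). Of 77674 final cells, 53730 had a call to a single gastruloid, and 135 of 136 gastruloids held the minimum of 30 cells. The median UMIs per cell were 11100 in MULTI-seq 1, 25500 to 27980 in MULTI-seq 2 and 28200 to 36130 in MULTI-seq 3, and the median mitochondrial percent was 5.49, 5.10 to 5.43 and 1.96 to 2.21. Lanes shared few cell barcodes: 732 of 76935 barcodes occurred in more than 1 lane. The authors' cell type names matched their markers in part. Sox17 was highest in Mature Endoderm (260 CPM), Tcf15 in Somites (1001 CPM), Mesp1 in Early Nascent Mesoderm (383 CPM) and Twist1 in Head Mesoderm (275 CPM). Other markers were highest elsewhere: the streak markers T in Notochord and Mixl1 and Eomes in Early Nascent Mesoderm, the endoderm marker Foxa2 in Notochord, the nascent mesoderm markers Evx1 in Caudal Epiblast and Lhx1 in Anterior Primitive Streak, and the head mesoderm marker Prrx2 in Somites (508 CPM). Of the cardiopharyngeal markers Hand1 was highest in Late Nascent Mesoderm and Gata6 in Anterior Primitive Streak, and the epiblast markers Pou5f1, Utf1 and Dnmt3b were highest in Primitive Streak or PGCs. Within MULTI-seq 3, day 3 had a pool of its own, days 3.5 and 4 shared a pool and so did days 4.5 and 5. Day and pool therefore cannot be told apart between pools, and days were tested against each other within a pool only.

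Cdh1, the epithelial cadherin, was highest at day 3 and lowest from day 4.5 on. In MULTI-seq 3 its level per gastruloid was 51.1 ± 6.08 CPM at day 3 (SD, n = 24; lowest 42.6, median 49.3, highest 68.1) and 36.0 ± 7.96 CPM at day 3.5 (SD, n = 16; 22.4, 37.3, 50.5). It was 28.0 ± 11.2 CPM at day 4 (12.6, 27.5, 51.3), 7.40 ± 7.58 CPM at day 4.5 (0.627, 4.42, 27.9) and 8.55 ± 8.49 CPM at day 5 (0.889, 4.88, 29.2). All 24 gastruloids of day 3 thus lay above all 32 of days 4.5 and 5, while at the last 2 days some gastruloids had almost no Cdh1 and others as much as day 4 gastruloids. The share of all genes whose days lie apart in this way is not given, here or for the members below. Day 4 in MULTI-seq 2 gave 24.7 ± 11.7 CPM (n = 11) and day 4.5 gave 7.92 ± 6.02 CPM (n = 12), and day 5 in MULTI-seq 1 gave 6.32 ± 5.88 CPM (n = 24). In sums over a whole gastruloid, fewer cells of a type and less RNA per cell cannot be told apart.

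Epcam, an epithelial adhesion molecule, had its highest level at the same day. It was 324 ± 30.8 CPM at day 3 (266, 335, 362), 111 ± 26.1 CPM at day 3.5 (76.0, 106, 157) and 112 ± 67.8 CPM at day 4 (35.7, 101, 280). Days 4.5 and 5 gave 43.7 ± 52.9 CPM (4.46, 23.6, 204) and 55.2 ± 54.6 CPM (5.00, 38.3, 193). The day 3 values did not overlap those of day 3.5, and the later days spread over a wide range that still reached the day 4 values.

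Cdh2, the neural and mesodermal cadherin, was already present at day 3 and was highest at day 4. Its level was 92.4 ± 27.2 CPM at day 3 (59.1, 81.1, 166), 188 ± 41.1 CPM at day 3.5 (142, 179, 262) and 199 ± 22.8 CPM at day 4 (162, 198, 229). It was 158 ± 20.9 CPM at day 4.5 (130, 154, 220) and 147 ± 15.7 CPM at day 5 (127, 146, 175). At days 4, 4.5 and 5 the SD was a smaller part of the mean in Cdh2 than in Cdh1, whereas at day 3 it was a larger part. Cdh11, a cadherin of mesenchyme, spread far more, with 12.5 ± 7.86 CPM at day 3 (4.60, 10.2, 30.4), 40.0 ± 31.9 CPM at day 4 (4.37, 28.9, 125) and 56.2 ± 26.3 CPM at day 5 (19.2, 53.1, 99.5).

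In MULTI-seq 3 the Zeb genes differed little between gastruloids of most days, except Zeb2 at day 4.5 (70.5 ± 15.0 CPM, with 58.7, 66.6, 118). Zeb1 was 10.4 ± 1.59 CPM at day 3 (6.76, 10.2, 13.5), 24.2 ± 3.02 CPM at day 3.5 (19.6, 24.9, 29.5), 43.4 ± 6.20 CPM at day 4 (30.04, 43.2, 52.5) and 35.9 ± 2.34 CPM at day 5. Zeb2 was 45.1 ± 5.84 CPM at day 3 (34.2, 44.0, 57.0), 94.9 ± 11.5 CPM at day 3.5 (70.8, 96.1, 121) and 65.2 ± 7.29 CPM at day 5. The day 3 values of both genes lay below all those of day 3.5, a day from another pool, again without such a share over all genes. Snai1, the Snail factor of the streak and the presomitic mesoderm, was at 16.4 ± 8.10 CPM at day 3, 24.5 ± 14.04 CPM at day 4 and 9.05 ± 3.76 CPM at day 5. Snai2, its paralog, was at 1.25 ± 0.454, 8.12 ± 6.56 and 8.36 ± 5.60 CPM on those days. Vim, a filament gene of mesenchymal and other motile cells, was at 138 ± 13.2, 208 ± 40.0 and 182 ± 24.1 CPM.

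**Figure D1:**
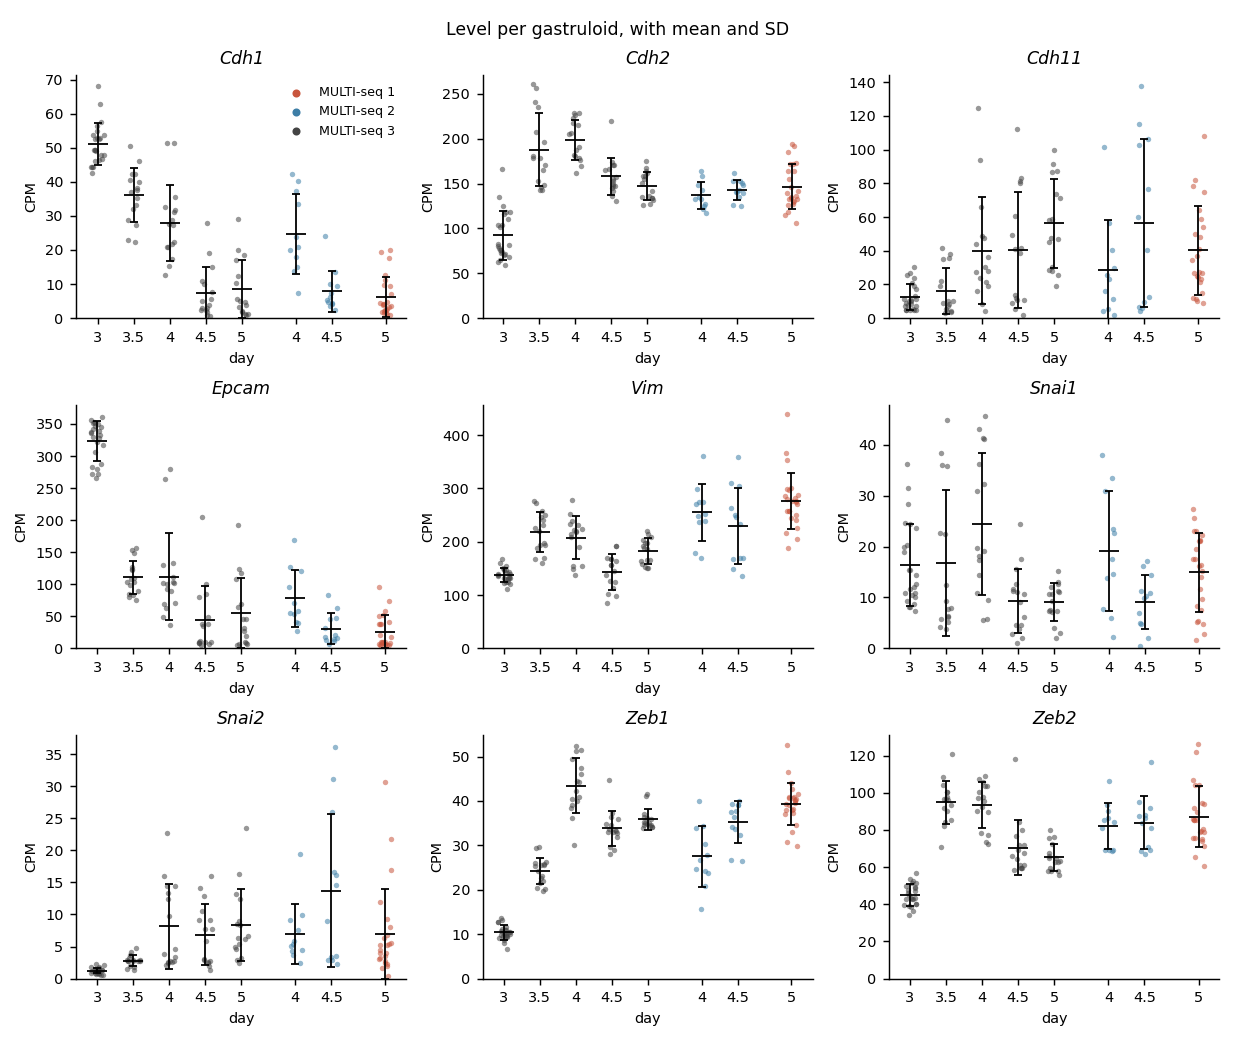
Level of each gene per gastruloid (CPM, vertical axis from 0) by day, with the mean and SD, and the 3 MULTI-seq experiments in different colours. Cdh1 in MULTI-seq 3 had a mean of 51.1 CPM at day 3 and 8.55 CPM at day 5, whereas Cdh2 had 92.4 and 147 CPM.

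Levels by cell type are given for the 20 named types that at least 5 gastruloids held with 20 or more cells. Each level pools all days and experiments that held the type. Epiblast, Anterior Primitive Streak, PGCs, Endothelium and Neurons fell short of this minimum. The orders and correlations below therefore leave them out. Since the authors named the types from expression, these levels are a description, with no test. Cdh1 was highest in Mature Endoderm at 142 ± 29.2 CPM (SD, n = 31 gastruloids; lowest 81.1, median 138, highest 206). Primitive Streak followed with 79.4 ± 25.5 CPM (n = 37), Notochord with 65.2 ± 47.5 CPM (n = 9), Caudal Epiblast with 50.5 ± 10.7 CPM (n = 28) and Early Neurectoderm with 39.3 ± 11.2 CPM (n = 23). Below these 5 types came Early Nascent Mesoderm at 14.2 CPM, Caudal Neurectoderm at 13.2 CPM and Early Posterior PSM (PSM is presomitic mesoderm in the authors' names) at 11.6 ± 7.97 CPM. Late Anterior PSM had the least, 0.307 ± 0.835 CPM (n = 40; lowest 0, median 0, highest 4.40). Of the 19 neighbouring pairs in this order 3 differed by more than the larger SD: Mature Endoderm above Primitive Streak, Caudal Epiblast above Early Neurectoderm, and Early Neurectoderm above Early Nascent Mesoderm. Since days are pooled, these gaps depend on which days enter. Primitive Streak of MULTI-seq 3, for one, was at 64.7 CPM at day 3 and 107 CPM at day 3.5.

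Cdh2 had the flattest profile of the 9 genes, with a factor of 3.907 between its highest and lowest type. Early Nascent Mesoderm had 284 ± 70.8 CPM, Notochord 276 ± 49.9, Late Nascent Mesoderm 234 ± 54.97, and Early Posterior PSM 216 ± 43.3 CPM. Mature Endoderm, the type richest in Cdh1, had 142 ± 62.2 CPM of Cdh2 (59.7, 137, 264), and Somites had less, at 112 ± 19.5 CPM. Only Primitive Streak (82.6 ± 37.5 CPM) and Early Neurectoderm (72.7 ± 35.0 CPM) were lower than Somites, and 0 neighbouring pairs differed by more than the larger SD. This order pools days. Cdh2 in Primitive Streak and Early Neurectoderm was 56.9 and 51.2 CPM at day 3 and 130 and 125 CPM at day 3.5. Somites had 126.9 CPM at day 4 and 104.5 CPM at day 5. At day 3.5 both types were still below Caudal Neurectoderm (150.8 CPM), Caudal Epiblast (154.8 CPM) and Early Posterior PSM (263.6 CPM). Levels of Cdh1 and Cdh2 over the 20 types had a correlation of −0.22 on the log scale (types share libraries and gastruloids, so no p is given). Notochord was among the 3 highest types for both, whereas Primitive Streak and Early Neurectoderm, among the 5 highest for Cdh1, were the lowest 2 for Cdh2 over all days pooled.

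**Figure D2:**
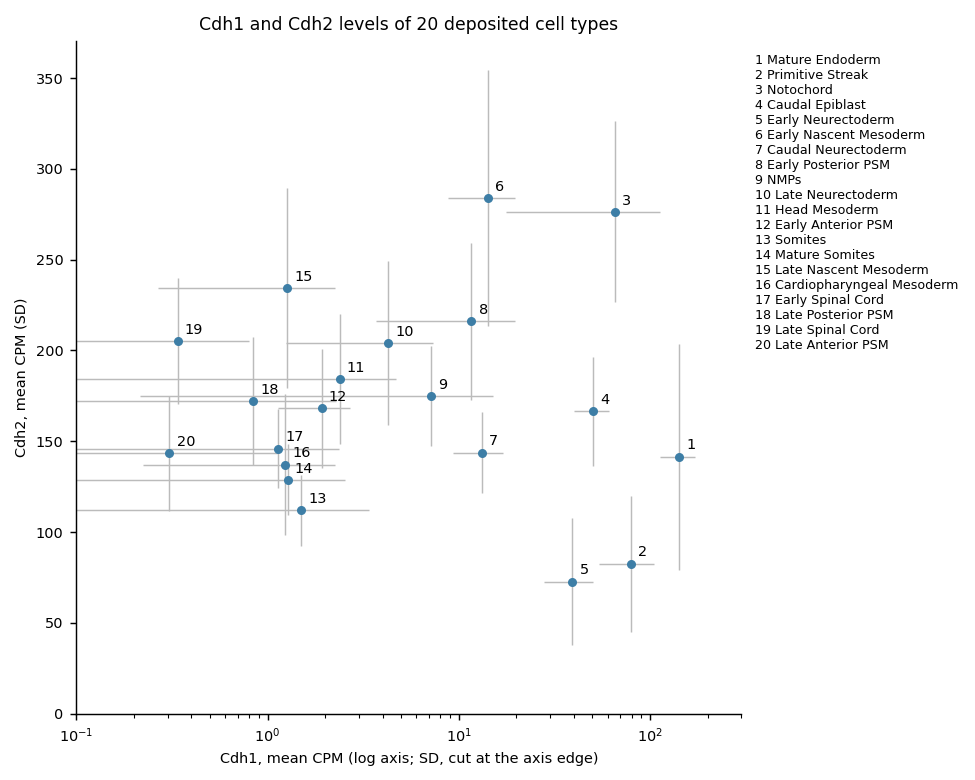
Mean Cdh1 level (CPM, horizontal log axis) against mean Cdh2 level (CPM, vertical axis) in 20 numbered types, with SD bars over gastruloids. Cdh1 ran from 0.307 CPM in Late Anterior PSM to 142 CPM in Mature Endoderm, while Cdh2 stayed between 72.7 and 284 CPM.

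Epcam followed the order of Cdh1 closely. It was 721 ± 124 CPM in Mature Endoderm (467, 710, 959), 335 ± 72.6 CPM in Primitive Streak, 289 ± 105 CPM in Early Neurectoderm and 139 ± 31.0 CPM in Caudal Epiblast, against 1.85 CPM in Late Anterior PSM. These levels pool days. Early Neurectoderm was at 353 CPM in its 16 gastruloids of day 3 and ranged from 104 to 411 CPM over all days. Cdh11 was highest in other types, with 241 ± 107 CPM in Head Mesoderm (n = 17), 158 ± 35.0 CPM in Mature Somites (n = 66) and 88.5 ± 32.8 CPM in Cardiopharyngeal Mesoderm. It was lowest in Early Neurectoderm, at 1.88 CPM. Over the 20 types Cdh11 had a correlation of −0.43 with Cdh1. Of the paraxial types, Somites had 74.7 ± 16.7 CPM of Cdh11, less than Mature Somites.

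The paralogs Snai1 and Snai2 had different types. Snai1 was highest in Early Nascent Mesoderm (70.0 ± 14.6 CPM), Early Posterior PSM (52.0 ± 8.81 CPM) and Late Anterior PSM (49.5 ± 21.1 CPM), and was at 8.33 CPM in Primitive Streak and 0.732 CPM in Late Spinal Cord. Snai2 was highest in Head Mesoderm (65.6 ± 25.7 CPM), Cardiopharyngeal Mesoderm (43.6 ± 24.3 CPM) and Mature Somites (21.7 ± 9.64 CPM), and Late Anterior PSM, among the 3 highest for Snai1, was the lowest for Snai2 at 0.555 CPM. Across the 20 types the pair had a correlation of −0.11.

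Zeb1 and Zeb2, by contrast, had like profiles, with a correlation of 0.84 over the 20 types. Zeb1 was highest in Early Anterior PSM (90.8 ± 13.6 CPM), Late Anterior PSM (67.0 ± 19.1 CPM) and Somites (62.2 ± 15.0 CPM). Zeb2 was highest in Late Neurectoderm (144 ± 31.3 CPM, n = 8), Early Anterior PSM (138 ± 13.7 CPM) and Late Anterior PSM (138 ± 25.2 CPM). Both were lowest in Mature Endoderm, at 2.28 ± 1.55 CPM for Zeb1 and 9.02 ± 6.09 CPM for Zeb2, and in both the step up to the neighbouring Primitive Streak (11.3 and 46.0 CPM) was larger than the SD. Zeb1 had a correlation of −0.81 with Cdh1 and −0.83 with Epcam, and Zeb2 had −0.59 and −0.60, whereas Snai1 had −0.18 with Cdh1. These type levels pool days, and types differ in their days. In whole gastruloids of MULTI-seq 3, Zeb1 was 10.4 CPM at day 3 and 43.4 CPM at day 4. Type and day therefore cannot be told apart in these correlations. Over all days pooled, Vim was highest in Cardiopharyngeal Mesoderm (408 ± 116 CPM, n = 12) and, next to it, in Caudal Epiblast (333 ± 79.5 CPM), a type with Cdh1 at 50.5 CPM. Primitive Streak had 227 ± 133 CPM pooled (104, 147, 630), but at day 3.5 its mean, given below, was above that of Caudal Epiblast here. Vim was lowest in Mature Endoderm (60.5 ± 39.6 CPM).

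**Figure D3:**
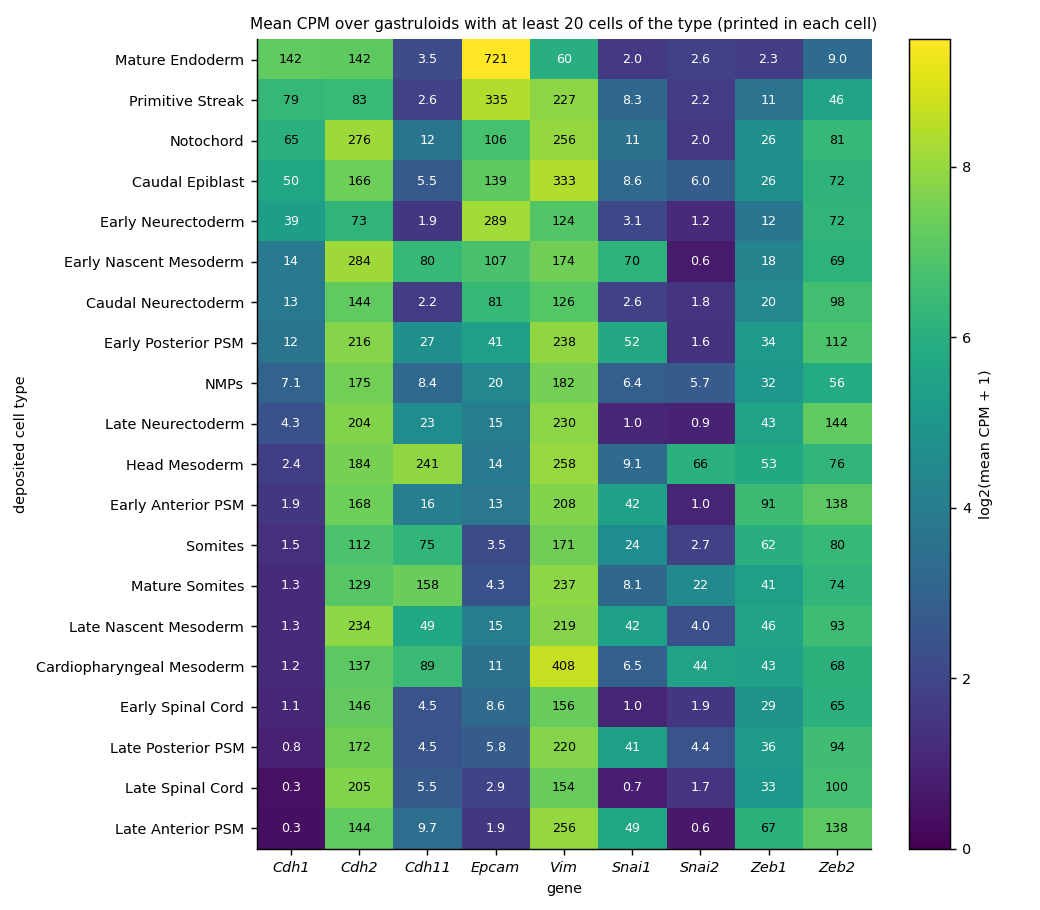
Mean level (CPM, printed in each cell, with colour for log2 of the mean plus 1) of the 9 genes in 20 cell types over gastruloids. Mature Endoderm has the highest Cdh1 (142) and Epcam (721) and the lowest Zeb1 (2.28), Zeb2 (9.02) and Vim (60.5).

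Genes with the profile most like each member were named by the correlation of log levels over the 20 types, among 4124 genes with at least 50 CPM in a type. Cdh1 was most like Epcam (0.97) and Esrp1 (0.95), an epithelial splicing regulator, and Epcam was most like Cdh1 and Esrp1 (0.95). Snai1 was most like Chic2 (0.93) and Inka1 (0.91), Zeb1 most like Slc38a2 (0.93) and Siah1a (0.92), and Zeb2 most like Scoc (0.87) and Msn (0.85). The nearest genes were less close for Cdh2 (Tsc22d1, 0.80, and Slc5a3, 0.79), Cdh11 (Gas1, 0.84, and H3f3a, 0.84), Vim (Gnb4, 0.80, and Tulp4, 0.78) and Snai2 (Tpm2, 0.85, and 1810058I24Rik, 0.83). All of these genes were measured in the same libraries.

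The types that held the Cdh1 counts differed by day. Shares here are unweighted means of each gastruloid's own percent, so gastruloids without a type lower its mean. At day 3 of MULTI-seq 3, 72.1% of Cdh1 UMIs lay in Primitive Streak cells, which were 57.1% of cells, and 10.8% in Early Neurectoderm. At day 3.5 Primitive Streak held 35.8% and Caudal Epiblast 25.1% of Cdh1. From day 4 Mature Endoderm led, with mean shares of Cdh1 UMIs of 56.6% at day 4, 41.1% at day 4.5 and 68.7% at day 5. It made up 7.73%, 3.29% and 4.18% of the cells on those days. At day 4.5, 9 of 16 gastruloids held any of these cells. In MULTI-seq 2 Mature Endoderm held 43.1% of Cdh1 at day 4 and 35.8% at day 4.5.

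Single gastruloids at the 2 ends of the Cdh1 range differed in this type too. At day 5 the gastruloid with the highest Cdh1 (29.2 CPM) had 14.3% Mature Endoderm cells, and the one with the lowest (0.89 CPM) had 1.32%. At day 4.5 the highest (27.9 CPM) had 14.1% and the lowest (0.63 CPM) 0%. Epcam was 193 and 10.4 CPM in the first pair and 204 and 4.46 CPM in the second. Within the low end the order differed: at day 5, gastruloids with 0.31% and 0.3% Mature Endoderm had more Cdh1 than the lowest, 1.14 and 1.78 CPM. With Mature Endoderm cells left out of the sums, Cdh1 in MULTI-seq 3 was 50.6 ± 6.49 CPM at day 3, 35.1 ± 7.97 CPM at day 3.5, 11.8 ± 6.07 CPM at day 4, 2.12 ± 1.08 CPM at day 4.5 (0.627, 2.27, 4.14) and 1.57 ± 0.936 CPM at day 5 (0.45, 1.36, 3.84). The highest gastruloid at day 5 was then at 3.84 CPM, and no gastruloid of day 4.5 was above 4.14 CPM. Epcam without these cells was 34.9 CPM at day 4 and 6.42 CPM at day 5.

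**Figure D4:**
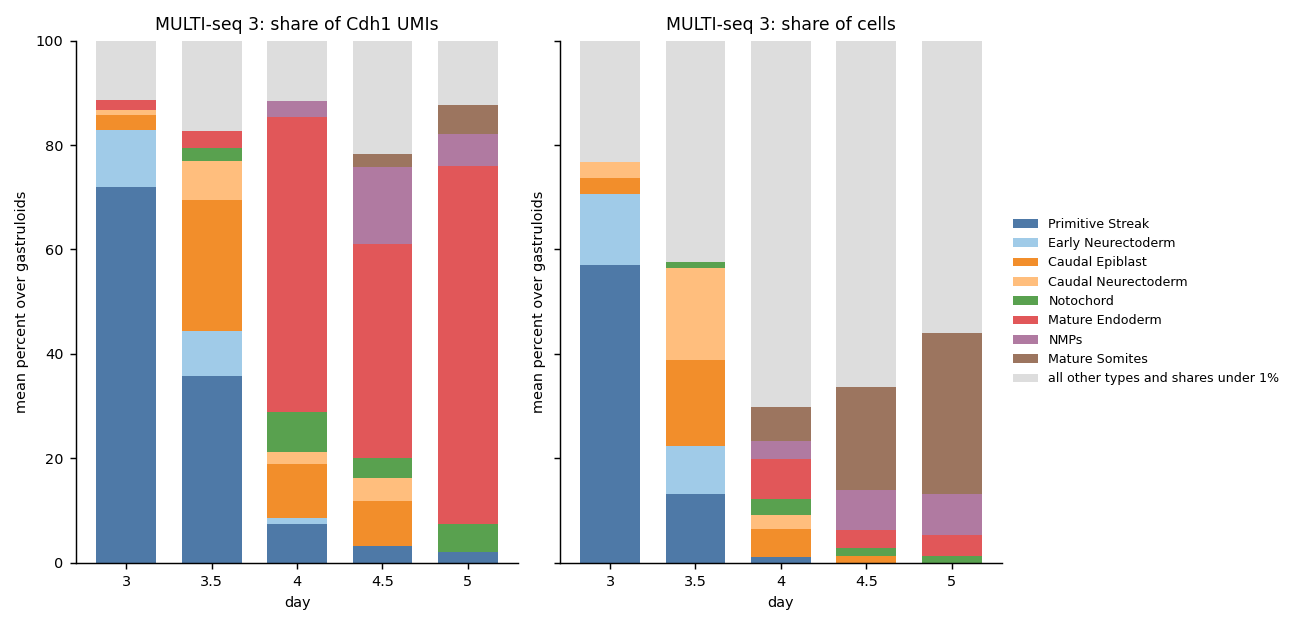
Stacked bars of the mean percent over gastruloids of MULTI-seq 3, by day: Cdh1 UMIs by cell type on the left and cells by cell type on the right. Mature Endoderm takes a mean of 68.7% of Cdh1 UMIs at day 5 with a mean of 4.18% of cells.

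The other members had other sources, again as unweighted means over gastruloids. These shares also depend on how many cells of each type were present. Epcam UMIs lay mostly in Primitive Streak at day 3 (67.5%) and in Mature Endoderm at day 4 (62.4%) and day 5 (75.4%). Cdh11 came from Early Nascent Mesoderm at day 3 (56.9%), from Early Posterior PSM at day 3.5 (38.1%) and from Mature Somites at days 4.5 (64.7%) and 5 (74.5%). Snai1 lay in Early Nascent Mesoderm at day 3 (45.2%), in Early Posterior PSM at day 3.5 (48.9%) and day 4 (26.3%), and in Late Posterior PSM at day 4.5 (33.9%) and day 5 (33.6%). For Snai2, at only 1.25 CPM at day 3, Primitive Streak led that day (68.7%), and this type also made up most of the cells. Cardiopharyngeal Mesoderm led in Snai2 at day 4 (21.3%) and Mature Somites at day 5 (59.4%). Thus the type that led in Snai1 did not lead in Snai2 on any of these days.

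Within the types rich in Cdh1, its level was not the same on all days. In Mature Endoderm of MULTI-seq 3, Cdh1 was 157 ± 16.6 CPM at day 4 (127, 162, 188; n = 13) and 114 ± 17.9 CPM at day 5 (81.1, 119, 138; n = 8), with Cdh2 at 186 and 86.9 CPM, Epcam at 697 and 831 CPM and Vim at 83.0 and 26.6 CPM. These days came from different pools and were not tested. In Primitive Streak, day 3 (n = 24) against day 3.5 (n = 13) had Cdh1 at 64.7 and 107 CPM, Cdh2 at 56.9 and 130 CPM, Epcam at 384 and 246 CPM and Vim at 138 and 391 CPM, also in different pools. So in the streak cells the later day had more of both cadherins and less Epcam. In Early Neurectoderm Cdh1 was 42.8 and 32.0 CPM on those days and Cdh2 51.2 and 125 CPM. In Notochord the day 4 gastruloids (n = 6) had Cdh1 at 89.5 ± 38.3 CPM (52.8, 81.1, 147) and Cdh2 at 301 CPM, and the 2 gastruloids of day 5 had a mean Cdh1 of 19.0 CPM and Cdh2 of 216 CPM.

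Single cells were asked whether they held both cadherins, after each cell was thinned to 5000 UMIs. In Mature Endoderm at day 4, 31.9 ± 6.74% of cells had both Cdh1 and Cdh2 (SD, n = 13 gastruloids, 1170 cells), where the product of the separate shares (52.9% with Cdh1, 58.7% with Cdh2) averaged 30.8%. At full depth (median 40441.5 UMIs per cell) 90.9% had both. At day 5 the thinned share was 14.4 ± 4.24% (product 13.0%, full depth 72.8%). At day 4.5, in 2 gastruloids, the share was 26.2% against a product of 19.3%, and at day 5 of MULTI-seq 1, in 3 gastruloids, 15.8% against 12.1%. At day 4 of MULTI-seq 2, in 2 gastruloids, it was 21.3% against 23.2%. The share with both thus lay near the product in the larger groups and on either side of it in the smaller ones, and the difference was not tested. As the background, Late Posterior PSM, which is low in Cdh1, had Cdh1 in 1.48% of thinned cells at day 4 (median 29378 UMIs at full depth) and in 0.0300% at day 5, and Late Anterior PSM in 0.619% and 0%. At full depth Late Posterior PSM had Cdh1 in 5.52% of cells at day 4 and 0.426% at day 5. Cdh2 has no such background, since most cells of each type held it at full depth.

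Notochord at day 4 had both in 21.4 ± 7.25% of thinned cells (product 22.4%, full depth 67.4%). At day 5, in 2 gastruloids, the Notochord share was 1.43% (product 4.35%, full depth 31.9%). Primitive Streak had both in 5.85 ± 1.79% at day 3 (product 5.99%, full depth 50.0%) and in 17.5 ± 8.38% at day 3.5 (product 17.7%, full depth 87.7%). Caudal Epiblast had both in 12.03 ± 4.67% at day 3.5 (product 13.3%) and 12.9 ± 5.99% at day 4 (product 13.3%). Late Posterior PSM at day 3.5, in 2 gastruloids, had Cdh1 in 4.52% of thinned cells, and 12.9% at full depth. At day 4, in the same pool and lanes, its share was 1.48% of thinned cells in 13 gastruloids. How much of the 4.52% is background was not tested. No Late Posterior PSM value was at hand for the pool of day 3.

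Day 4 was compared with day 3.5 in MULTI-seq 3 (16 gastruloids each) to ask which members differ between days that share a pool. By edgeR's quasi-likelihood test with Benjamini-Hochberg adjustment over all genes, 60.4% of the 13262 genes tested were called at an adjusted p under 0.05 (4131 higher, 3875 lower), and 4 of the 9 members were called, a share below that background. The median log2 fold change was 0.05 over the members and 0.01 over all genes. Zeb1 rose by 0.81 (SE 0.0724, adjusted p = 1.91e-10), and all 16 gastruloids of day 4 lay above all those of day 3.5. The share of all genes with such a gap is not given. Snai2 rose by 1.51 (SE 0.33, adjusted p = 0.00023), from 2.80 CPM (1.30, 2.80, 4.70) to 8.12 CPM (2.08, 4.21, 22.7), with overlapping ranges. Only 10 of 16 gastruloids of day 4 lay above the day 3.5 median of Snai2. Cdh11 rose by 1.22 (SE 0.399, adjusted p = 0.00901), from 16.1 CPM (3.25, 9.46, 41.7) to 40.0 CPM, and 14 of 16 gastruloids lay above the day 3.5 median.

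Cdh1 fell by 0.38 on the log2 scale (SE 0.156, adjusted p = 0.0348), and 14 of 16 gastruloids of day 4 lay below the day 3.5 median, although the ranges overlapped. This call was lost without TMM factors (adjusted p = 0.0544), without the filter on low counts (0.0658), with at least 100 cells per gastruloid (0.0704) and without lane C (0.0537). Cdh2 had a log2 fold change of 0.05 (adjusted p = 0.669), Epcam −0.01 (0.985), Vim −0.10 (0.406), Snai1 0.47 (SE 0.371; 0.275) and Zeb2 −0.05 (0.533). Split by arithmetic into a part from the share of UMIs in each type and a part from levels within types, the mean Cdh1 difference of −8.02 CPM was −11.5 from makeup and 3.45 from levels. For Zeb1 the 19.2 CPM were 13.96 from makeup and 5.22 from levels, and for Cdh11 the 23.9 CPM were 28.7 and −4.76. Epcam, with a difference of 1.22 CPM, had parts of −14.2 and 15.4. This split, here and below, used every type with no minimum of cells. Mature Endoderm, for one, averaged 0.674% of cells at day 3.5. In Caudal Epiblast and Early Posterior PSM, tested below, the log2 fold changes of Cdh1 and Epcam were negative, unlike these level parts. The part of sparse types was not tested. Without Mature Endoderm cells Epcam was 107.3 ± 30.3 CPM at day 3.5 (59.3, 106, 157) and 34.9 ± 12.3 CPM at day 4 (20.01, 32.02, 63.9), with ranges that overlapped a little and no test.

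Within a type the same 2 days can be compared where 8 or more gastruloids of each held 20 cells of it, and such a test is conditional on the naming of types. In Caudal Epiblast (13 gastruloids each) 18.8% of 8851 genes were called by edgeR's test, and 3 of 7 members tested were called, all higher at day 4. Snai1 rose from 6.46 ± 2.58 CPM (3.07, 5.67, 12.9) to 10.2 ± 6.05 CPM (4.76, 7.57, 26.5), by 0.77 (SE 0.224, adjusted p = 0.014). Zeb1 rose from 21.9 ± 3.14 to 29.9 ± 4.32 CPM, by 0.49 (SE 0.0914, adjusted p = 0.000253). Cdh2 rose from 155 ± 24.7 CPM (114, 154, 203) to 183 ± 24.5 CPM (150, 180, 223), by 0.27 (SE 0.0797, adjusted p = 0.0162). The ranges of all 3 overlapped. The Cdh2 call was lost without lane B (0.0555), without lane C (0.092) and with at least 40 cells (0.198), and the Snai1 call with at least 40 cells (0.0817). Snai1 fell under the filter on low counts without lane A or lane B. Cdh1 was at 54.3 and 49.3 CPM (log2 fold change −0.10, adjusted p = 0.534) and Epcam at 153 and 132 CPM (−0.18, 0.17).

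Early Posterior PSM (10 gastruloids of day 3.5, 15 of day 4) had 36.9% of 10049 genes called by edgeR's test, and 5 of 8 members tested were called. All 4 adhesion genes fell. Cdh1 went from 12.5 ± 4.74 CPM (6.08, 12.02, 20.9) to 7.996 ± 4.14 CPM (4.03, 6.26, 16.3), and fell by 0.95 on the log2 scale (SE 0.187, adjusted p = 0.000135). Cdh11 went from 36.6 ± 11.1 CPM (7.60, 37.8, 50.5) to 20.5 ± 8.05 CPM (6.65, 20.8, 34.1), and fell by 0.88 on that scale (SE 0.132, adjusted p = 3.09e-06). Epcam went from 35.8 ± 19.7 CPM (9.12, 29.9, 72.8) to 22.7 ± 9.06 CPM (13.2, 22.2, 46.3), and fell by 0.85 (SE 0.21, adjusted p = 0.00171). For each of these 3 genes the ranges of the days overlapped. Cdh2 went from 264 ± 22.1 CPM (220, 270, 297) to 215 ± 19.5 CPM (176, 220, 246), and fell by 0.35 (SE 0.0421, adjusted p = 7.6e-08). All 15 gastruloids of day 4 lay below the day 3.5 median of Cdh2, with overlapping ranges.

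Of the regulators in Early Posterior PSM, Zeb1 rose by 0.20 (SE 0.08, adjusted p = 0.0468), from 33.2 ± 6.36 to 41.1 ± 8.38 CPM. This call was lost with DESeq2 (0.0502), without the filter (0.0652), with at least 40 cells (0.0551), without lane A (0.371) and without lane C (0.204). Snai1 was at 48.0 and 53.5 CPM (log2 fold change 0.08, adjusted p = 0.413) and Zeb2 had 0.03 (0.504), which without TMM factors was 0.09 and called (0.0327). Both days shared the same 4 lanes. Cdh11 was thus higher at day 4 in whole gastruloids and lower at day 4 within Early Posterior PSM.

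Day 5 was compared with day 4.5 in MULTI-seq 3 in the same way. In whole gastruloids 13.5% of 12298 genes were called by edgeR's test, and 1 of 9 members was called. Vim rose from 143 ± 32.9 CPM (84.7, 150, 193) to 182 ± 24.1 CPM (150, 187, 220), by 0.33 (SE 0.0902, adjusted p = 0.0127), and 15 of 16 gastruloids of day 5 lay above the day 4.5 median, with overlapping ranges. By the same arithmetic, 32.0 of the 39.1 CPM of Vim came from levels within types and 7.11 from makeup. Cdh1 had a log2 fold change of 0.20 (adjusted p = 0.853), Epcam 0.32 (0.759), Cdh11 0.44 (0.459) and Cdh2 −0.12 (0.187). The median was 0.20 over the members and −0.00 over all genes.

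Early Spinal Cord (14 and 15 gastruloids) had 12.3% of 9150 genes called by edgeR's test, and 3 of 6 members tested. Vim rose from 102 ± 24.2 CPM (70.8, 100, 153) to 147 ± 28.0 CPM (98.9, 147, 212), by 0.54 (SE 0.0945, adjusted p = 8.78e-05). Epcam went from 9.46 ± 5.35 CPM (3.03, 8.69, 24.4) to 5.22 ± 2.01 CPM (2.04, 4.23, 9.59), and fell by 0.90 on the log2 scale (SE 0.186, adjusted p = 0.000718). The ranges of both genes overlapped between the days. Cdh11, at 3.17 and 5.21 CPM, rose by 0.76 (SE 0.251, adjusted p = 0.0395), a call lost with DESeq2 (0.0688), without the filter (0.0531) and with at least 40 cells (0.0695), and Cdh11 fell under the filter when any 1 lane was left out.

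Mature Somites (10 and 16 gastruloids) had 14.6% of 10328 genes called, and 3 of 8 members tested, all lower at day 5. Snai2 went from 23.6 ± 6.002 CPM (8.49, 24.2, 29.8) to 15.8 ± 3.63 CPM (9.97, 15.1, 23.2), and fell by 0.57 on the log2 scale (SE 0.115, edgeR adjusted p = 0.000569), with all 16 gastruloids of day 5 below the day 4.5 median. Epcam went from 4.86 ± 1.08 to 2.68 ± 1.52 CPM, and fell by 0.89 (SE 0.231, adjusted p = 0.007), at levels near the 1.85 CPM of Late Anterior PSM. It fell under the filter without lane A. Cdh11 went from 166 ± 35.5 CPM (98.6, 169, 227) to 143 ± 16.8 CPM (97.8, 143, 172), and fell by 0.22 (SE 0.0739, adjusted p = 0.0423), a call lost with DESeq2 (0.0646), without the filter (0.0773), with at least 10 cells (0.106) and without lane A (0.115).

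In neuromesodermal progenitors (NMPs, 8 and 14 gastruloids) 6.06% of 8460 genes and 1 of 6 members tested were called by edgeR's test. Zeb2 went from 52.9 ± 4.02 CPM (44.7, 53.5, 57.6) to 43.4 ± 6.19 CPM (33.0, 43.6, 55.9), and fell by 0.31 on the log2 scale (SE 0.0889, adjusted p = 0.0293), with overlapping ranges. That call was lost with DESeq2 (0.0536), without the filter (0.0732), without TMM factors (0.0839), without lane B (0.488) and without lane C (0.207). Other members were called in NMPs under other settings: Vim without TMM factors (0.26, adjusted p = 0.0402), and Epcam with at least 10 cells (−0.82, 0.0309) and without lane B (−1.08, 0.0489). In Late Posterior PSM (9 and 15 gastruloids) 6.15% of 8421 genes and 0 of 5 members tested were called by edgeR's test. In edgeR's test 2 members there had an unadjusted p under 0.05, Zeb1 (log2 fold change 0.19, adjusted p = 0.23) and Vim (0.15, adjusted p = 0.233), and DESeq2 called 0.

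Days 4 and 4.5 shared a pool in MULTI-seq 2 (11 and 12 gastruloids), a pair of days that fell into different pools in MULTI-seq 3. There 7.36% of 11064 genes were called by edgeR's test, and 2 of 9 members. Cdh1 went from 24.7 ± 11.7 CPM (7.44, 20.9, 42.2) to 7.92 ± 6.02 CPM (2.38, 5.77, 24.1), and fell by 1.65 on the log2 scale (SE 0.304, adjusted p = 0.00158), with 11 of 12 gastruloids of day 4.5 below the day 4 median. Epcam went from 77.8 ± 44.6 CPM (26.3, 58.9, 169) to 30.8 ± 24.3 CPM (6.18, 19.3, 83.9), and fell by 1.36 (SE 0.357, adjusted p = 0.02), with 10 of 12 below that median. The ranges overlapped for both genes, and the Epcam call was lost without lane 3 (0.0592).

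Snai1 in MULTI-seq 2 was at 19.1 ± 11.7 and 9.10 ± 5.38 CPM (log2 fold change −1.01, adjusted p = 0.0727), with 12 of 12 gastruloids below the day 4 median. It was called with at least 100 cells per gastruloid (0.0365) and without lane 2 (0.0349). Zeb1 had a log2 fold change of 0.31 (adjusted p = 0.0936). Without Mature Endoderm cells, which were 5.43% of cells at day 4 and 2.42% at day 4.5, Cdh1 was 12.6 and 4.38 CPM and Epcam 30.4 and 12.2 CPM. By arithmetic, −14.7 of the −16.8 CPM of Cdh1 came from the share of UMIs in each type and −2.14 from levels within types. The median log2 fold change was 0.01 over the members and −0.00 over all genes. No type was held by 8 gastruloids of each day, so no test within a type was made.

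**Figure D5:**
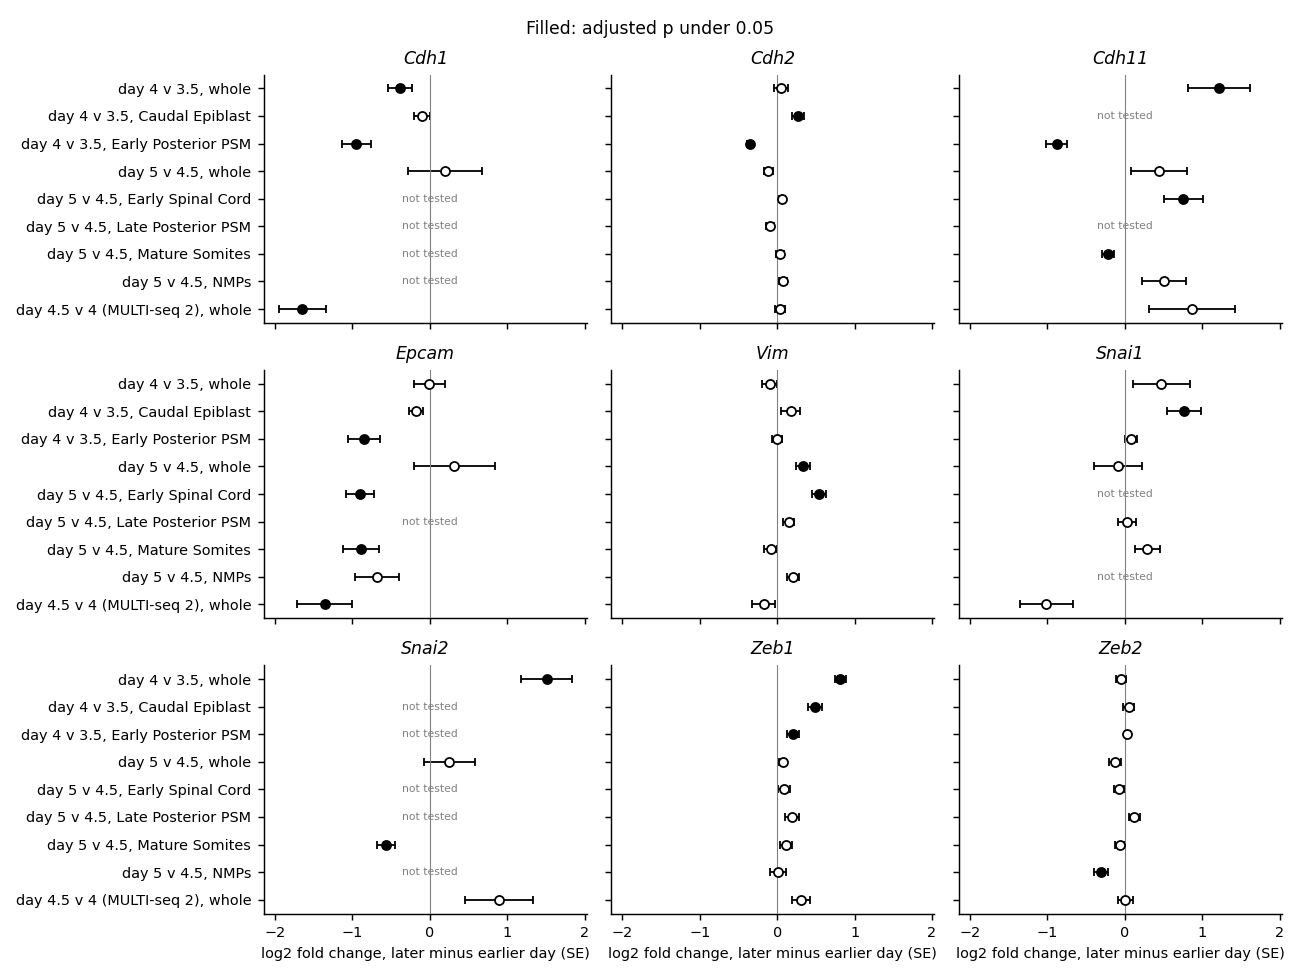
Log2 fold change (horizontal axis, with SE) of each member, as later minus earlier day, in 9 comparisons (rows) between 2 days of 1 pool. Filled points have an adjusted p under 0.05 by edgeR's test, and members under the filter are marked as not tested. In MULTI-seq 2 Cdh1 lies at −1.65, and in Early Posterior PSM the 4 adhesion genes lie left of 0.

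Other genes of the same machinery were counted from lists of epithelial genes (19), mesenchymal genes (10), further cadherins (15) and catenins (6). Between day 3.5 and day 4 in whole gastruloids, 10 of 18 epithelial genes tested rose and 1 fell, with a median log2 fold change of 0.52 against 0.01 over all genes. With 60.4% of all genes called in this fit, 11 called of 18 is close to the background. Krt18, a keratin of simple epithelia, rose by 2.64 (adjusted p = 1.18e-06) from 12.8 to 84.8 CPM, and Cldn6, a tight junction claudin, by 2.25 (adjusted p = 1.3e-05). Pkp2, a desmosome gene, fell by 0.47 on the log2 scale (adjusted p = 0.0227). Mature Endoderm held a mean of 3.31% of the Cdh1 UMIs of a gastruloid at day 3.5 and 56.6% at day 4. Its part in the list was not tested. Of the mesenchymal list 8 of 10 rose, beside 60.4% of all genes called (4131 of 13262 higher), with a median of 1.30, among them Foxc2 by 3.61 (adjusted p = 2.8e-08) and Twist1 by 2.24 (adjusted p = 7.73e-08), both transcription factors of mesoderm.

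Of the further cadherins in that comparison, with the same background of 60.4%, 1 of 6 tested rose (Cdh4, by 0.35) and 3 fell (among them Cdh10 with −1.27 and Cdh20 with −0.97), with a median of −0.74. Of the catenins, which link cadherins to the cell cortex, 5 of 6 rose, such as Ctnna2 and Jup by 0.57 each, and Ctnnd2 fell by 0.87 on the log2 scale, beside the same 60.4%. Between day 4.5 and day 5, edgeR's test called 2 genes of the 4 lists, on which 16 epithelial, 9 mesenchymal, 4 cadherin and 6 catenin genes were tested, a share below the 13.5% of all genes. They were the mesenchymal gene Twist2 (higher by 1.47, adjusted p = 0.0106) and Cdh10 (−0.49). In MULTI-seq 2, where Cdh1 and Epcam fell, 3 of 13 epithelial genes fell as well (among them Dsg2 with −1.67 and Esrp1 with −1.61), with a list median of −1.27, beside 7.36% of all genes called and a median of −0.00. Mature Endoderm was 5.43% of cells at day 4 and 2.42% at day 4.5 there, and its part in the result was not tested. In Early Posterior PSM, where 36.9% of all genes were called, 5 of 8 mesenchymal genes rose, with a median of 0.40, and of 7 epithelial genes 2 rose and 2 fell. In Caudal Epiblast between the same days (18.8% of all genes called) 2 of 3 mesenchymal genes tested fell, Twist1 and Sparc, with a median of −0.47, and of 8 epithelial genes 2 rose and 2 fell. Between day 4.5 and day 5 the mesenchymal list had 1 higher and 3 lower of 9 in Mature Somites (14.6% of all genes called), 3 higher of 6 in NMPs (6.06%), 3 higher and 1 lower of 8 in Late Posterior PSM (6.15%) and 2 higher of 5 in Early Spinal Cord (12.3%). The list thus had different directions in different types.

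Experiments were compared at the same day, where culture, library and lanes differ together with the experiment and cannot be told apart, and these tests use the same MULTI-seq 3 and MULTI-seq 2 gastruloids as the tests of days. At day 4, 46.1% of 13713 genes were called by edgeR's test between MULTI-seq 3 and MULTI-seq 2, and 3 members. Zeb1 was higher in MULTI-seq 3 (43.4 against 27.5 CPM, log2 fold change 0.47, adjusted p = 0.000478), as was Cdh2 (199 against 137 CPM, 0.37, 3.22e-05), while Vim was lower (208 against 255 CPM, −0.46, 0.00111). Without TMM factors the median of all genes was shifted by 0.18. At day 4.5, 42.5% of 11695 genes were called and 2 members: Cdh2 (158 against 143 CPM, 0.19, adjusted p = 0.00955) and Vim (143 against 230 CPM, −0.64, 0.000292), with all 16 MULTI-seq 3 gastruloids below the MULTI-seq 2 median of Vim.

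At day 5, 63.7% of 11718 genes were called by edgeR's test between MULTI-seq 3 and MULTI-seq 1, and 7 members. Epcam was higher in MULTI-seq 3 (55.2 against 26.0 CPM, 1.44, adjusted p = 0.0034), as was Cdh11 (56.2 against 40.2 CPM, 0.72, 0.0114). Mature Endoderm made up 4.18% of cells in MULTI-seq 3 and 1.79% in MULTI-seq 1, and without these cells Epcam was at 6.42 and 6.37 CPM. Vim was lower (182 against 277 CPM, −0.37, 1.62e-05), as were Snai1 (9.05 against 14.9 CPM, −0.56, 0.0397) and Zeb2 (65.2 against 87.1 CPM, −0.18, 0.0205). Cdh2 had the same CPM mean in both (147) with a fitted change of 0.23 (adjusted p = 0.00188), and Zeb1 a fitted change of 0.09 (0.0444) with CPM means of 35.9 and 39.4. Without TMM factors, where the median of all genes was shifted by −0.25, Cdh2 was at 0.01 (0.949), Cdh11 at 0.50 (0.072) and Zeb1 at −0.13 (0.00611), so the direction of Zeb1 and the calls of Cdh2 and Cdh11 rest on the scaling. The Snai1 call was lost with DESeq2 (0.097) and without the filter (0.065), and the Zeb2 call without the filter (0.0603). Vim was lower in MULTI-seq 3 in all 3 comparisons, in which the mitochondrial percent was lower too; its part in the result was not tested.

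Within a type and day, the Cdh1 level of gastruloids was set against Cdh2, Epcam and Snai1, the only regulator in this family of tests. Across 28 groups of at least 10 gastruloids, 84 relations were computed, of which 0 passed at an adjusted p under 0.05 and 10 had an unadjusted permutation p under 0.05. The largest was between Cdh1 and Cdh2 in Early Posterior PSM at day 3.5, with Pearson's r of 0.83 (n = 10, permutation p = 0.00284, adjusted p = 0.116) and Spearman's rho of 0.71 (adjusted permutation p = 0.323). After the 2 most extreme gastruloids in Cdh1 were left out, r was 0.59. The same pair had r of −0.23 there at day 4 (n = 15, adjusted permutation p = 0.868), and at day 5 −0.64 in Mature Somites (n = 16, adjusted permutation p = 0.143) and −0.59 in Late Anterior PSM (n = 12, adjusted permutation p = 0.374), where Cdh1 averaged 1.018 and 0.371 CPM. Cdh1 and Snai1 had r of 0.75 in Caudal Epiblast at day 3.5 (n = 13, rho 0.80, adjusted permutation p = 0.116) and 0.02 there at day 4. In Primitive Streak at day 3.5 the same pair had r of 0.75 (n = 13, rho 0.75, adjusted permutation p = 0.116), and 0.66 without the 2 most extreme gastruloids, but 0.18 at day 3 (n = 24, adjusted permutation p = 0.868). Of the 10 relations with an unadjusted p under 0.05, 5 were of Cdh1 with Epcam, all positive, with r from 0.56 in Early Neurectoderm at day 3 to 0.77 in Early Posterior PSM at day 3.5 (adjusted permutation p = 0.24 and 0.156).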

How the data were processed

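Single cells of gastruloids were captured on 10x Genomics lanes with 3′ chemistry, and the deposited matrices hold UMI counts per gene and barcode, which the authors made, per the file headers, with Cell Ranger 6.0.0. The build mm10 and Seurat are named per the submitters' processing notes, and no label or header names the annotation or the strand setting. The authors' deposited cell table gave the 77674 final cells of 18 lanes, their gastruloid call and 1 of 25 type names, and no doublet caller was run. The day 3 and 3.5 lanes of MULTI-seq 2 were not analysed here.

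Counts were summed per gastruloid (at least 30 cells), or per gastruloid and type (at least 20 cells), over lanes, since lanes are technical splits. Gastruloids were the replicates, as separate aggregates, though whether they came from separate cultures is not given. Sums ranged from 1293000 to 57330000 UMIs. Days within a pool and experiments at a day were compared with edgeR 4.0.16 (filterByExpr, TMM, quasi-likelihood F-test, Benjamini-Hochberg adjustment over all genes, threshold 0.05) in R 4.3.3, after a check on simulated data; DESeq2 1.42.0, no filter, no TMM, other cell minima and each lane left out were alternatives. Correlations used two-sided permutation tests with 100000 resamples. A level over all days needed 5 gastruloids. Thinning to 5000 UMIs left out 189 shallower cells of MULTI-seq 1 and 0 elsewhere. Intervals (95%, exact Poisson) cover counting error only. Tables and figures were made with numpy 2.4.6, pandas 2.3.3, scipy 1.17.1 and matplotlib 3.10.9. Genes named beside the members were, per list, up to 2 called genes of largest change in each direction and, per member, the 2 with the most similar profile of log2(CPM + 1). The members and lists were chosen with earlier results of these data known.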

Additional observations from a re-analysis of the deposited data

Results flagged for a closer look

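Among 224 sets of values, each of 1 member over 5 to 10 gastruloids of a type, day and experiment or over the 4 lanes of the day 3.5 and 4 pool, 26 held a gastruloid whose gap to its nearest neighbour was large for the range of the set. Chance alone flags about 1 in 20 sets, and sets of different members share gastruloids.

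In Caudal Neurectoderm at day 3.5 of MULTI-seq 3 the same gastruloid (57 cells) stood apart from the other 9 for 4 members. It had the least Cdh2 (114.3 CPM, nearest 140.1) and Zeb2 (54.71, nearest 94.28) and the most Epcam (145.9, nearest 82.59) and Vim (187.6, nearest 127.0). In NMPs at day 4 of MULTI-seq 3, 3 different gastruloids with 20, 24 and 30 cells were highest for Cdh1 (38.03 CPM, nearest 25.04), Epcam (145.7, nearest 77.72) and Vim (298.1, nearest 215.0).

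In Early Posterior PSM at day 3.5 a gastruloid with 22 cells had the least Cdh11 (7.598 CPM, nearest 35.33) and another with 25 cells the most Snai2 (6.183, nearest 3.131). In Mature Somites a gastruloid of day 4.5 with 30 cells had the least Snai2 (8.485 CPM, nearest 21.75) and a gastruloid of day 4 the least Snai1 (4.129, nearest 6.347). In Cardiopharyngeal Mesoderm at day 4 the highest Vim was 555.5 CPM (nearest 371.6). In Head Mesoderm the highest Zeb1 at day 4 was 61.94 CPM (nearest 53.35) and the highest Snai1 at day 5 was 14.81 CPM (nearest 9.555).

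The other values in MULTI-seq 3 were at low levels or in small groups. Cdh11 in Early Neurectoderm at day 3.5 reached 6.471 CPM (nearest 3.073), and Zeb2 in Mature Endoderm at day 5 reached 19.96 CPM (nearest 9.342). Cdh1 reached 2.532 CPM in Late Anterior PSM at day 4 (nearest 0.8896), 0.5296 CPM in Late Posterior PSM at day 4.5 (the others at 0) and 8.384 CPM in Somites at day 4 (nearest 4.093). Epcam reached 5.941 CPM in Somites at day 5 (nearest 1.703) and 6.597 CPM in Late Spinal Cord at day 4.5 (nearest 2.818). Snai2 in Late Anterior PSM at day 4.5 reached 1.178 CPM (the others at 0), and the lowest Zeb2 in Late Spinal Cord at day 5 was 63.47 CPM (nearest 79.34).

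In MULTI-seq 2 at day 4.5, Late Posterior PSM had a highest Zeb2 of 117.0 CPM (nearest 92.33), and Late Spinal Cord a highest Snai1 of 1.7 CPM (nearest 0.4157) and a highest Snai2 of 4.655 CPM (nearest 2.975).

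The 18446 final MULTI-seq cells without a call to a single gastruloid entered no sum. They held 36.05% of the Cdh1 UMIs of these experiments against 26.89% of all UMIs. These percentages join pools that differ in Cdh1 level and in share of cells without a call. In the day 3 pool, the richest in Cdh1, 4847 cells negative for any barcode and 1461 doublets had no call, beside 5778 called cells. Cdh1 there was 52.03 CPM in negative cells, 54.98 CPM in doublets and 50.88 CPM in called cells. In the other pools with calls, negative cells had more Cdh1, as given below. The part of the pool mix in the 36.05% was not tested.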

How the results depend on the processing

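Of 612 log2 fold changes of members under alternatives, 546 kept their direction and their side of the threshold, 31 lost a call, 10 gained one and 25 turned sign; numbers of genes called stayed within 1.5 times in 69 of 81 cases and numbers of members called in 72 of 81. The removal of TMM factors within types and between experiments was chosen after seeing the data. In Caudal Epiblast at least 40 cells gave 581 genes and 1 member (against 1661 and 3), and leaving out each lane gave 1001 to 1163 genes and 1 to 3 members. Leaving out each lane gave 687 to 859 genes in Early Spinal Cord (1127 with all), 266 to 309 in Late Posterior PSM (518), 178 to 217 with 0 to 1 members in NMPs (513 and 1), 340 to 535 with 1 to 3 members in MULTI-seq 2 (814 and 2), and 1 to 3 members in Mature Somites (3). In NMPs DESeq2 and the lack of a filter each called 0 members and at least 10 cells called 2. Between MULTI-seq 3 and MULTI-seq 2 at day 4.5 the lack of TMM factors called 4 members (2 with them). For the lane left out, fewer cells were summed; otherwise the cause was not tested.

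All values that turned sign were log2 fold changes near 0 or without a call, apart from Zeb1 between MULTI-seq 3 and MULTI-seq 1 (0.09, and −0.131 without TMM factors). Epcam between day 3.5 and day 4 (−0.006) was 0.026 without TMM factors, 0.021 without the filter, 0.06 with at least 100 cells and −0.022 to 0.01 when lanes were left out. Vim in Early Posterior PSM (−0.004) was 0.057 without TMM factors and −0.051 to 0.048 over lanes. Snai1 in Late Posterior PSM (0.03) was −0.004 with at least 10 cells, −0.032 with at least 40 and −0.066 to 0.07 over lanes. Over lanes Cdh1 between day 4.5 and day 5 was −0.002 to 0.403 Zeb2 in Mature Somites −0.1 to 0.027 and Zeb2 in MULTI-seq 2 −0.024 to 0.103. Between MULTI-seq 3 and MULTI-seq 2 at day 4, Cdh1 was 0.003 with DESeq2, 0.138 without TMM factors and 0.031 without the filter, Snai2 was 0.02, 0.138 and 0.025, and Cdh11 was −0.288 with at least 100 cells. At day 4.5 Snai1 was −0.027 without TMM factors and −0.072 with at least 100 cells.

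Levels by type kept within 1 SD in 962 of 972 cases. The share of cells with both cadherins moved by more than 1 SD in 42 of 94 cases, 16 with 2500 and 26 with 8000 UMIs per cell, as depth sets it. NMPs with at least 40 cells, and without lane A, could not be fitted because too few gastruloids remained. No paired analysis was possible because the shared numbers name lanes of a pool and the days hold different gastruloids. Depth limits values near or under 1 CPM, such as Cdh1 in Late Anterior PSM, Snai1 in Late Spinal Cord and Snai2 in Late Anterior PSM.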

Other observations

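Lanes without gastruloid calls give the members' levels for whole pools, with 95% Poisson intervals where shown, and entered no test. The 10X lane of day 3 had Cdh1 at 47.7 CPM (45.9 to 49.6), close to the 51.1 CPM mean of single gastruloids at day 3 of MULTI-seq 3. Several other members were less alike: Epcam was at 186 CPM against a mean of 324, Snai1 at 43.6 against 16.4, Cdh11 at 30.6 against 12.5, Vim at 220 against 138 and Zeb1 at 15.1 against 10.4 CPM. The 10X lane lay outside the range of the 24 gastruloids for 4 of these genes, above their highest value for Snai1 (36.3), Vim (168) and Zeb1 (13.5) and under their lowest for Epcam (266), and for Cdh11 its interval (29.1 to 32.1) held their highest value (30.4). The 10X lane of day 4 had Cdh1 at 11.8 CPM (10.7 to 12.9), Epcam at 38.3, Vim at 335 and Cdh2 at 144 CPM. Beside day 4 of MULTI-seq 3, its Cdh1 was under the mean of 28.0 CPM, with an interval that held the lowest gastruloid (12.6). Its Cdh2 lay under the lowest gastruloid there (162), its Vim above the highest (278) and its Epcam within the range. All 4 values lay within the ranges of day 4 in MULTI-seq 2. The 2 lanes of pool C of MULTI-seq 2 had Cdh1 at 16.9 and 13.6 CPM and Cdh2 at 148 and 143 CPM.

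Cells called negative for any MULTI-seq barcode had more Cdh1 than cells with a single-gastruloid call in all 5 pools compared, though at day 3 the values were nearly the same. In MULTI-seq 1 it was 43.5 CPM in 102 negative cells against 5.54, with Epcam at 202 against 22.1 CPM. In pool B of MULTI-seq 2 Cdh1 was 37.0 CPM in 167 negative cells against 15.8. In MULTI-seq 3 it was 19.2 CPM in 437 cells against 8.05 in the pool of days 4.5 and 5, 41.7 CPM in 2990 cells against 30.8 in the pool of days 3.5 and 4, and 52.0 CPM in 4847 cells against 50.9 at day 3. Epcam in the pool of days 4.5 and 5 was 110 CPM against 51.3. In the pool of days 3.5 and 4, negative cells also had less Cdh11 (9.14 against 37.0 CPM) and Zeb1 (24.7 against 38.1 CPM). No day was assigned to negative cells, so in pools of 2 days their mix of days may differ from that of called cells. These differences have no replicates and were not tested, and they bear on the sums above because such cells entered none.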
